A study of Pinctada imbricata with 5 samples.

Results

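Transcripts matching the chaperones HSP90, mitochondrial HSP60, HSP10 and alpha-crystallin B were followed in the pearl sac, the pouch of epithelium that forms around a nucleus implanted in a pearl oyster and lays down the pearl. They were chosen by name, as 4 listed unigenes whose best protein match names one of these chaperones, out of 19415 unigenes listed in any library. A unigene is an assembled transcript. Digital gene expression profiling was used, in which short tags cut from messenger RNA are counted. All the oysters were 1.5 years of age and had undergone surgical implantation, and their sacs were taken 10, 15, 20, 30 or 60 days later, with 1 library for each day. The species is Pinctada imbricata in the labels but Pinctada martensii in the title of the series, no other treatment or genotype is named, and the number of sacs behind each library is not stated. The series title gives genes of nacre formation as the aim of the time course.

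Chaperones bind unfolded or partly folded proteins and keep them from clumping. HSP90 is an abundant cytosolic chaperone that uses ATP to finish the folding of kinases, receptors and other client proteins, with co-chaperones that hand clients over from HSP70. HSP60 and HSP10 work as a pair in the mitochondrial matrix, where HSP60 forms a barrel in which imported proteins fold and HSP10 is its lid. Alpha-crystallin B is a small heat shock protein, which needs no ATP and holds unfolded proteins until other chaperones take them. Genes of all these families are induced by heat and other stress in many animals.

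The tags by which each gene was counted were 21 bases long and are shown because every value below is a count of these sequences. Capitals mark CATG, the site at which a tag begins, and the sites are numbered from the 3′ end of the unigene.
HSP90 (Unigene83137), site 1: CATGatgaatactctacgcac
HSP90 (Unigene83137), site 2: CATGgataccaagcttgagat
HSP60 (Unigene89867), site 1: CATGaaaactgtgggtaggga
HSP60 (Unigene89867), site 2: CATGttacaaggagttgacac
HSP10 (Unigene20937), site 1: CATGcttttctgttgatgata
Alpha-crystallin B (Unigene85224), site 1: CATGggtcatcccacatactt
Alpha-crystallin B (Unigene85224), site 2: CATGttcgtcctgtttctcct
Alpha-crystallin B (Unigene85224), site 3: CATGtactgtcttgtgaattc
None of these tags was assigned to another unigene in the deposited tables.

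Each match was the best hit in the nr protein database given by the authors. HSP90 matched the oyster Crassostrea gigas (e-value 7.45e-73), HSP60 a mammal, the giant panda Ailuropoda melanoleuca (2.35e-102), HSP10 the frog Xenopus laevis (9.05e-35) and alpha-crystallin B the guinea pig Cavia porcellus (1.40e-21). Gene ontology terms placed HSP60 and HSP10 in the mitochondrial matrix and gave alpha-crystallin B unfolded protein binding, and no term was given for HSP90.

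The total number of tags behind a library was 4700927 to 4784094, of which 12.8% to 28.0% were listed for unigenes. Levels are given as tags and as scaled TPM, which is the deposited TPM (tags scaled to a common library total) divided by a scaling factor for the library, 0.884 on day 30 to 1.16 on day 15. There is no correction for transcript length in these values. With 1 library per day there was no test between days, and intervals are 95% intervals that cover counting error only. A gene is called higher or lower where it had at least 10 scaled TPM on the day with more, and where its ratio differed from 1 by over 2-fold across the full interval. The labels name pearl sac, whose epithelium grows from a graft of mantle. Of 28 unigenes matching mantle and shell matrix genes, 12 reached 10 scaled TPM in some library. They summed to 2545, 497, 964, 3704 and 451 tags in order of day, and to 1418, 497, 964, 1082 and 451 without a tyrosinase match (Unigene1470). The 15 muscle unigenes summed to 8, 20, 32, 19 and 31 tags in order of day. The 4 egg and germline unigenes summed to 2 to 10 tags per library, and the 8 of the digestive gland to 20 to 117. In bulk tissue, fewer cells of a type and less RNA per cell cannot be told apart.

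HSP90 (Unigene83137) was listed on all 5 days and stood highest on day 15. Its tag counts were 7 (day 10), 67 (day 15), 10 (day 20), 4 (day 30) and 16 (day 60). In scaled TPM these were 1.56 (95% interval 0.628 to 3.22), 12.1 (9.36 to 15.3), 2.33 (1.12 to 4.29), 0.962 (0.262 to 2.46) and 2.94 (1.68 to 4.78). The interval of day 15 overlapped none of the other 4, and those 4 overlapped each other. HSP90 ranked above 91.0% of the unigenes listed on day 15 by tag count, and above 37.2% to 73.8% of those listed on the other days.

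On day 15 HSP90 was 7.73-fold higher than on day 10 (95% interval 3.55 to 20.0), with 67 tags on day 15 against 7 on day 10. On day 20 it was 5.18-fold lower than on day 15 (2.65 to 11.3). The ratio was 0.413 for day 30 over day 20 (0.0945 to 1.43), 3.06 for day 60 over day 30 (0.987 to 12.6) and 1.89 for day 60 over day 10 (0.734 to 5.42), and each of these intervals spanned 1. HSP90 met the rule for higher on day 15 against each of the other 4 days, but with listed tags as the scaling it was called neither on day 60 against day 15 (ratio 0.322, 0.174 to 0.562). Such a peak was shared by 17.0% of the 1188 genes of at least 10 scaled TPM on day 15. HSP90 and HSP60 reached 10 scaled TPM on day 15 only, so a peak on another day was not possible for them. HSP10 reached it also on days 10 and 60, and alpha-crystallin B on days 20 and 60, without such a peak there. Of all genes reaching it on the day, 6.40% (day 10), 11.5% (day 20), 3.23% (day 30) and 6.86% (day 60) had one.

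HSP60 (Unigene89867) followed nearly the same course as HSP90. It was counted 5 times (day 10), 73 times (day 15), 11 times (day 20), 4 times (day 30) and 14 times (day 60). These correspond to 1.12 (0.362 to 2.60), 13.2 (10.3 to 16.5), 2.56 (1.28 to 4.59), 0.962 (0.262 to 2.46) and 2.58 scaled TPM (1.41 to 4.32). Day 15 again stood apart from every other day, while days 10, 20, 30 and 60 lay within counting error of each other.

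In ratios, HSP60 was 11.8-fold higher on day 15 than on day 10 (4.83 to 37.4) and 5.13-fold lower on day 20 than on day 15 (2.71 to 10.7). The ratio for day 30 over day 20 was 0.375 (0.0871 to 1.27), for day 60 over day 30 it was 2.68 (0.841 to 11.2) and for day 60 over day 10 it was 2.31 (0.786 to 8.19), with intervals that spanned 1. It too met the rule for a peak on day 15. A further unigene matching HSP60, of the snail Biomphalaria glabrata (Unigene91994), stayed under 10 scaled TPM and had 10, 21, 3, 6 and 16 tags in order of day. It also had its most tags on day 15, but only 21 against 16 on day 60, or 3.78 against 2.94 scaled TPM. The summed tags of both HSP60 unigenes were 15, 94, 14, 10 and 30. In the sum, day 15 was 5.06-fold higher than day 10 (2.92 to 9.41), a smaller fold than that of Unigene89867 alone. A further unigene with the HSP90 match (Unigene88650) had 0, 6, 6, 0 and 0 tags. The files do not show whether such unigenes are pieces of 1 gene or separate genes.

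HSP10 (Unigene20937), the lid of the HSP60 barrel, had the most tags of the 4 genes on days 10, 15, 30 and 60. The libraries held 60 (day 10), 184 (day 15), 38 (day 20), 31 (day 30) and 80 (day 60) of its tags. They correspond to 13.4 (10.2 to 17.2), 33.2 (28.5 to 38.3), 8.86 (6.27 to 12.2), 7.46 (5.07 to 10.6) and 14.7 scaled TPM (11.7 to 18.3). Day 15 was again highest and its interval overlapped no other. Days 20 and 30 were lowest and did not differ beyond counting error from each other (ratio 0.842 for day 30 over day 20, 0.506 to 1.39), nor did day 60 from day 10 (ratio 1.10, 0.777 to 1.56).

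The ratio of HSP10 was 2.48 for day 15 over day 10 (1.84 to 3.37), an interval that excluded 1 but reached under 2-fold, so that it was not called higher. This call depended on the scaling, since HSP10 was called higher on day 15 with DESeq2 size factors (2.73-fold, 2.03 to 3.71), total tags (3.04-fold, 2.26 to 4.14) and listed tags (2.95-fold, 2.19 to 4.02), and also at a limit of 1.5-fold. On day 20 it was 3.74-fold lower than on day 15 (2.63 to 5.46), which met the rule. The ratio of 1.97 for day 60 over day 30 (1.29 to 3.09) did not. HSP10 did not meet the rule for a peak on day 15, since the intervals against days 10 and 60 reached under 2-fold.

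Alpha-crystallin B (Unigene85224) had another course, with high tag counts on days 20 and 60. It gave 2 tags (day 10), 6 (day 15), 106 (day 20), 6 (day 30) and 69 (day 60). In scaled TPM these were 0.446 (0.0540 to 1.61), 1.08 (0.397 to 2.35), 24.7 (20.2 to 29.9), 1.44 (0.530 to 3.14) and 12.7 (9.88 to 16.1). Days 20 and 60 each stood apart from days 10, 15 and 30, and days 10, 15 and 30 overlapped. The 2 tags of day 10 are the lowest count the deposited tables list.

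On day 20 alpha-crystallin B was 22.9-fold higher than on day 15 (10.2 to 63.7), on day 30 it was 17.1-fold lower than on day 20 (7.61 to 47.7), and on day 60 it was 8.80-fold higher than on day 30 (3.84 to 24.8). All these met the rule. Day 60 was 28.5-fold above day 10 (7.58 to 240), a ratio that rests on 69 tags on day 60 against 2 on day 10. Between its 2 high days, day 60 was 1.95-fold lower than day 20 (1.42 to 2.68), an interval that excluded 1 and reached under 2-fold. Scaled by listed tags in place of TMM, the order of these 2 days turned, with 17.8 scaled TPM on day 60 against 14.7 on day 20. A further alpha-crystallin B match, to the frog Xenopus tropicalis (Unigene89325), was listed on the same 2 days only, with 9 tags on day 60 and 5 on day 20. Other small heat shock proteins were near the limit of listing, with 2 tags on day 15 and none on other days for both an HSP22 match (Unigene90807) and an HSP beta-2 match (Unigene68377).

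**Figure D1:**
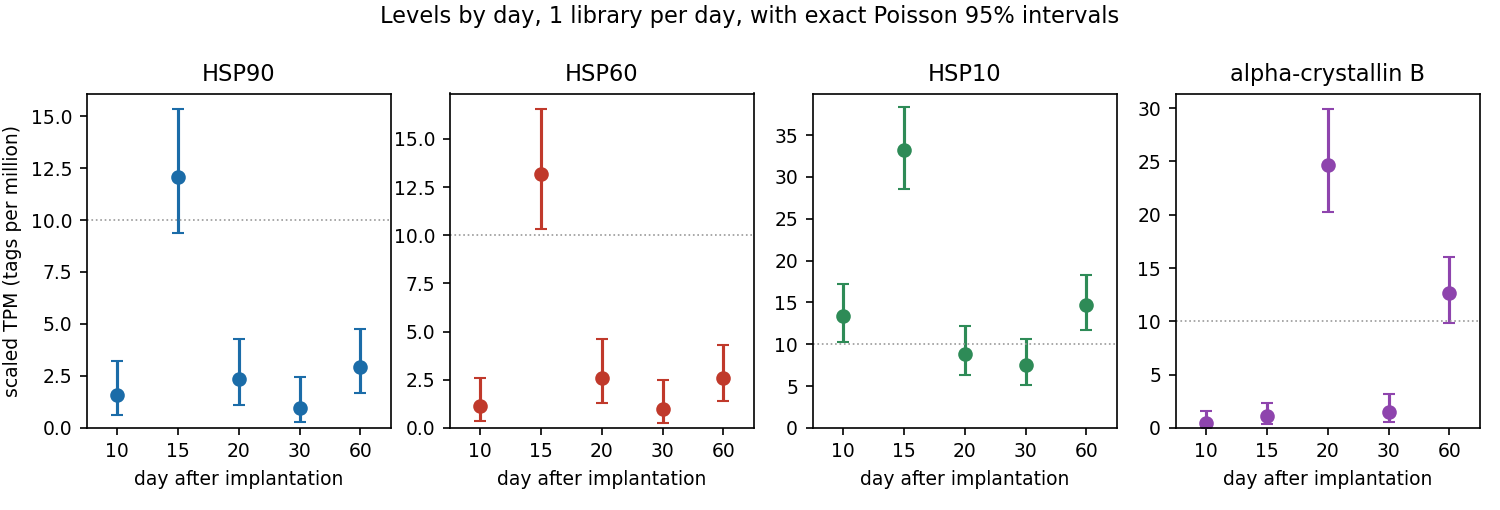
Level of each gene in scaled TPM (the deposited TPM divided by the scaling factor of the library) against day after implantation. Points are single libraries, bars are exact Poisson 95% intervals of the tag count, and the dotted line is the minimum of 10 scaled TPM. HSP90, HSP60 and HSP10 stand highest on day 15 (12.1, 13.2 and 33.2 scaled TPM) and alpha-crystallin B on day 20 (24.7) and day 60 (12.7).

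Read over the 4 genes, 2 were called higher and 0 lower on day 15 against day 10, with 3 of 4 reaching the minimum level. Over all 1669 genes compared, 20.3% were called higher and 24.0% lower. On day 20 against day 15, 1 of 4 was called higher and 3 lower, where 25.6% and 26.8% of 1636 genes were. The 3 lower were HSP90 and both parts of the mitochondrial chaperonin. On day 30 against day 20, only 1 of 4 reached the minimum level, and 0 were higher and 1 lower (19.8% and 18.9% of 1534 genes). On day 60 against day 30, 1 was higher and 0 lower (15.7% and 15.2% of 1525 genes), and on day 60 against day 10 also 1 and 0 (14.4% and 19.0% of 1602 genes). In each of these 2 comparisons with day 60, 2 of 4 reached the minimum level. The gene called in these last 3 counts was alpha-crystallin B each time. Of the other pairs of days, 1 gene was higher and 0 lower on day 20 against day 10 (15.8% and 21.3% of 1581 genes), and 0 were either on day 30 against day 10 (8.95% and 12.7% of 1497 genes). Only HSP10 and alpha-crystallin B reached the minimum level in the comparison of day 20 with day 10, and only HSP10 in that of day 30 with day 10. On day 30 against day 15, 0 were higher and 3 lower (22.3% and 24.9% of 1640 genes), namely HSP90 by 12.6-fold (4.68 to 47.4), HSP60 by 13.7-fold (5.12 to 51.5) and HSP10 by 4.45-fold (3.03 to 6.74). On day 60 against day 15, 1 was higher and 2 lower (25.0% and 25.0% of 1643 genes), namely alpha-crystallin B by 11.7-fold (5.13 to 33.1), against HSP90 by 4.10-fold (2.35 to 7.58) and HSP60 by 5.11-fold (2.86 to 9.80). On day 60 against day 20, 0 were either (364 and 383 of 1585 genes), and only HSP10 and alpha-crystallin B reached the minimum level. With listed tags, HSP10 was called higher on day 60 against day 20 (3.92-fold, 2.63 to 5.93). At a limit of 1.5-fold it was called lower on day 60 against day 15 (ratio 0.444, 0.337 to 0.580). The shares over all genes were not computed for these pairs under these settings. The median log2 ratio of the 4 genes, with a pseudocount of 1 scaled TPM, was 1.80 on day 15 over day 10 and -1.88 on day 20 over day 15, against medians of -0.02 and -0.01 over all genes compared. At a minimum of 20 scaled TPM, HSP90 and HSP60 were called in no comparison, nor was alpha-crystallin B on day 60 against day 30 or day 10. With so few genes these shares describe the libraries, and nothing particular to the chaperones is read from them.

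**Figure D2:**
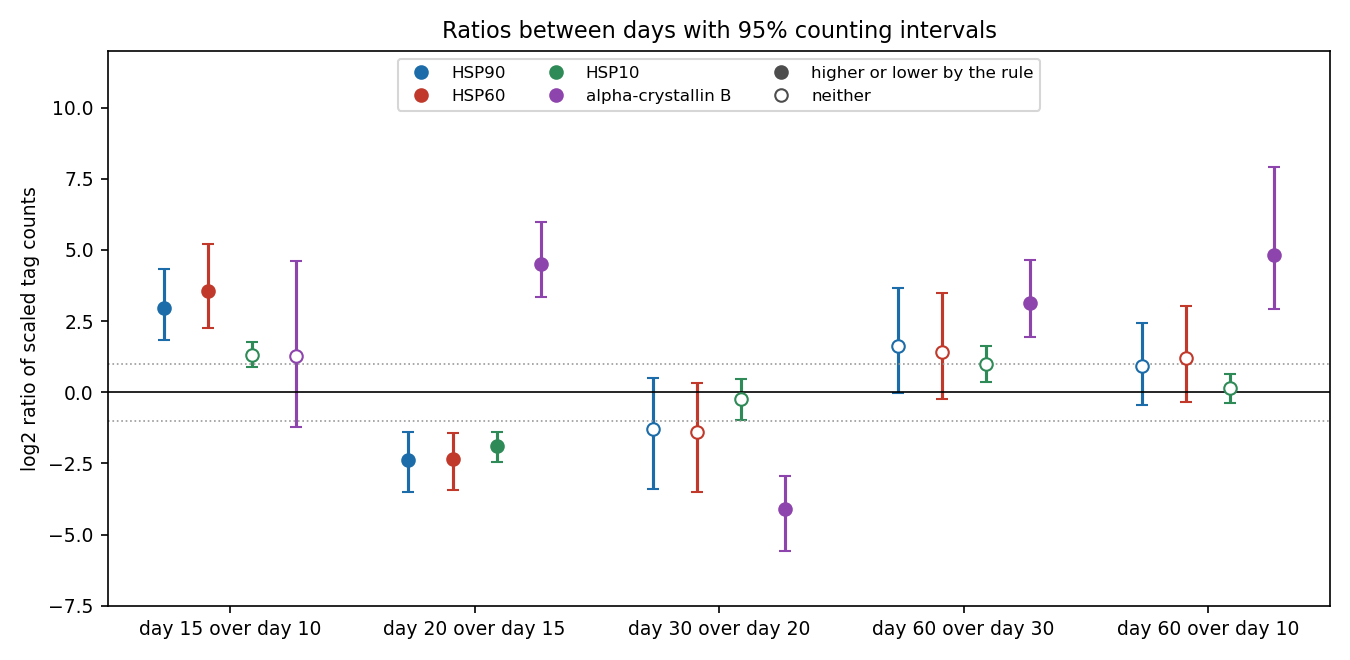
Ratio of scaled tag counts, on a log2 scale, of the later over the earlier day for 4 pairs of consecutive days and for day 60 over day 10. Bars are 95% intervals of counting error, filled points were called higher or lower, open points were not, and dotted lines mark 2-fold. HSP90, HSP60 and HSP10 lie below 0 and alpha-crystallin B above it in the comparison of day 20 with day 15.

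The relation between genes counted in the same library does not depend on the scaling between libraries. In order of day, HSP60 had 0.0833 (0.0261 to 0.205), 0.397 (0.298 to 0.523), 0.289 (0.133 to 0.578), 0.129 (0.0331 to 0.365) and 0.175 tags (0.0916 to 0.311) per HSP10 tag. That ratio was 4.74-fold higher on day 15 than on day 10 (1.82 to 15.7), and 0.442 times as high on day 60 as on day 15 (0.217 to 0.848). Between days 20 and 15 it did not differ beyond counting error (0.730, 0.319 to 1.56). The change into day 15 rests on 5 HSP60 tags on day 10. With the tags of both HSP60 unigenes it was 2.04-fold (1.07 to 4.08), and the change of day 60 over day 15 was then within counting error (0.735, 0.434 to 1.22). Because a transcript can give tags at several sites, the ratio of 2 genes is not a ratio of their molecules, and only its change between days is compared.

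HSP90 and HSP60 had similar tag counts in each library. HSP90 over HSP60 was 1.40 (0.382 to 5.59), 0.918 (0.649 to 1.30), 0.909 (0.346 to 2.36), 1.0 (0.186 to 5.37) and 1.14 (0.523 to 2.53) in order of day. None of the 10 pairs of days differed in this ratio beyond counting error. Each of these intervals also reached above 2-fold, as for day 60 over day 15 (1.24, 0.524 to 2.98), so a change of that size is not excluded. On days 10 and 30, with 7 and 5 or 4 and 4 tags, the intervals are too wide to show a difference of 2-fold. HSP90 against alpha-crystallin B gave the widest swing of the 4 pairs of genes computed. There were 0.0943 HSP90 tags per alpha-crystallin B tag on day 20 (0.0440 to 0.180), against 11.2 on day 15 (4.87 to 31.5), and the ratio was 0.00894 times as high on day 20 as on day 15 (0.00250 to 0.0266).

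**Figure D3:**
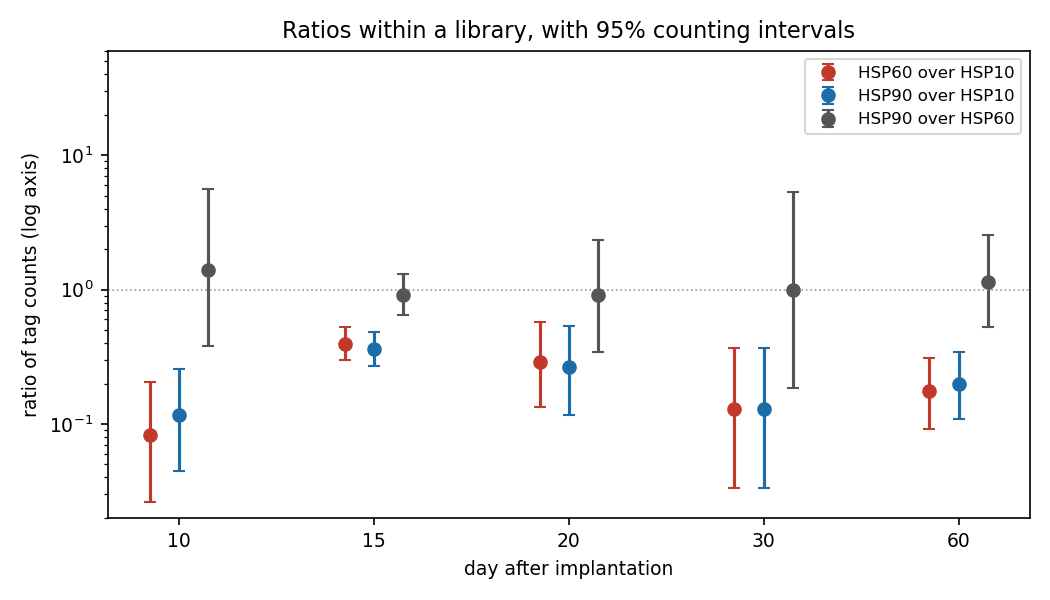
Ratio of the tag counts of pairs of genes within a library, on a log axis, against day after implantation, with 95% intervals of counting error. HSP90 over HSP60 stays between 0.909 and 1.40, and HSP60 over HSP10 lies between 0.0833 on day 10 and 0.397 on day 15.

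The sites that gave the tags differed between the genes. HSP10 was counted at a single site, with all 393 of its tags over the 5 days at the 3′-most CATG. HSP90 had 88.5% of its 104 tags at the 3′-most site. HSP60 had 23.4% of its 107 tags there and 76.6% at the second site, and in every library the second site had more tags. For HSP60 the 3′-most site gave 0, 20, 2, 0 and 3 tags in order of day and the second site 5, 53, 9, 4 and 11, so both were highest on day 15.

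For HSP90 the 3′-most site gave 5, 65, 7, 4 and 11 tags in order of day and the second site 2, 2, 3, 0 and 5. The added tags of day 15 were thus at the 3′-most site. That site held 68.8% of the tags on day 60 (exact 95% interval 41.3 to 89.0%), against 97.0% on day 15 (89.6 to 99.6%). The odds of the 3′-most site were 0.0713 times as high on day 60 as on day 15 (0.00608 to 0.499). For day 15 over day 10 the interval of the change in these odds spanned 1 (0.734 to 200). With 5 and 2 tags at the sites on day 10, a change in shares along with the rise was not shown. The share of all genes with such a change in odds was not computed for these pairs of days. On days 10, 20 and 30 there were 10 tags or fewer, and the intervals of their shares ran from at most 39.8% to at least 93.3%.

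For alpha-crystallin B the same sites gave tags on the high days 60 and 20, but in different shares. The 3′-most, the second and the third site gave 52, 15 and 2 tags on day 60, against 35, 60 and 11 on day 20. The 3′-most site held 75.4% of the tags on day 60 (63.5 to 84.9%), against 33.0% on day 20 (24.2 to 42.8%), and its odds were 6.13-fold higher on day 60 (2.99 to 13.1). Tags of the 3′-most site alone were thus more numerous on day 60 than on day 20, although the gene's total was lower. Of the 530 genes with at least 20 tags on both days and a tag at another site than the 3′-most, 17.7% had odds whose interval lay beyond 2-fold in either direction, so many genes passed this limit. The cause was not tested. At the 3′-most site alone, HSP60 had 3.60 scaled TPM on day 15, and alpha-crystallin B had 9.57 on day 60 and 8.16 on day 20, all under the minimum, so their calls ended.

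**Figure D4:**
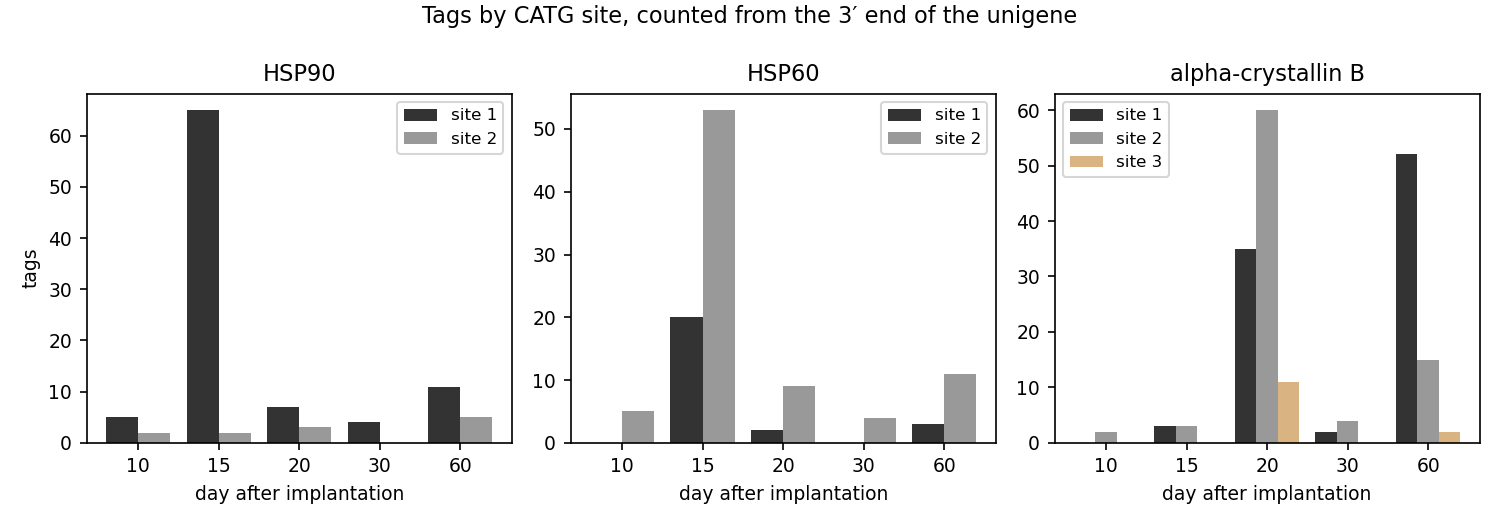
Number of tags at each CATG site, numbered from the 3′ end of the unigene, against day after implantation for the 3 genes with more than 1 site. For alpha-crystallin B the second site leads on day 20 (60 tags) and the 3′-most on day 60 (52 tags). For HSP60 the second site leads on all days.

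Other chaperones were read from 7 lists defined by the protein match, which hold 79 unigenes beside the 4 genes. The lists also hold proteins other than chaperones, such as mitochondrial import subunits, a protease and heat shock factor partners. Of these 79, 9 reached 10 scaled TPM in some library. On day 15 against day 10, 2 of the 6 compared were higher and 1 lower, and on day 20 against day 15, 2 of 7 were higher and 2 lower. That last count of 2 lower was 4 with DESeq2 size factors or total tags and 5 with listed tags. With TMM, calreticulin and a heat shock factor 2 binding protein match were the 2 higher on day 15 and the 2 lower on day 20. The 1 lower on day 15 was a TIM44 match. Without the minimum level, 7 of 64 list genes with tags on either day were higher on day 15 than on day 10 and 1 was lower, where 5.37% and 6.92% of 14851 genes were. On day 20 against day 15, 2 of 65 were higher and 7 lower, where 6.53% and 7.02% of 14476 genes were. On day 30 against day 20, 1 of 56 was higher and 3 lower (6.46% and 4.95% of all genes), on day 60 against day 30, 1 of 56 was higher and 1 lower (3.88% and 4.85%), and on day 60 against day 10, 0 of 59 were higher and 1 lower (4.03% and 6.22%). In all, 29 of the 79 had their highest count on day 15, and 12 (day 20), 17 (day 60), 6 (day 10) and 2 (day 30) had it on another day, while the rest had a tie. As shares of the 79 these were 36.7% (day 15), 15.2% (day 20), 21.5% (day 60), 7.59% (day 10) and 2.53% (day 30), against 31.2%, 13.6%, 21.6%, 12.7% and 11.6% of all 19415 unigenes, so the share on day 15 was near that of all unigenes.

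Among the co-chaperones and prolyl isomerases, some of which act with HSP90, only peptidyl-prolyl isomerase E (Unigene57190) reached the minimum level, and it was called neither higher nor lower in any of the 10 pairs of days, with 75, 99, 37, 60 and 128 tags in order of day. The FK506-binding protein Unigene88746 had 10, 54, 7, 7 and 10 tags and FK506-binding protein 2 (Unigene90168) had 12, 40, 7, 8 and 3. Both had their highest count on day 15, as 31.2% of all unigenes did. Of the FK506-binding protein 4 matches, Unigene89013 had 2, 9, 6, 0 and 6 tags and Unigene88208 had 2, 0, 0, 0 and 0. CDC37 (Unigene47487) had 0, 2, 4, 0 and 0. STIP1, which links HSP70 to HSP90, matched Unigene90272 with 6, 15, 0, 0 and 2 tags and Unigene80955 with 0, 2, 8, 3 and 0. The 22 unigenes of this list summed to 122, 261, 88, 95 and 179 tags, and to 47, 162, 51, 35 and 51 without isomerase E.

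The 11 other unigenes of the mitochondrial list summed to 465, 505, 390, 344 and 307 tags in order of day. Without a TIM44 match (Unigene82768) the other 10 summed to 249, 505, 390, 247 and 307. These are unscaled tags, and the scaling factor was 1.16 on day 15 against 0.897 on day 20, so they do not set day 15 above day 20. Prohibitin (Unigene88741), a scaffold protein of the inner membrane, had 165, 347, 351, 143 and 157, and the proteolytic subunit of the Clp protease of the matrix (Unigene89914) had 67, 113, 29, 85 and 106. Neither was called higher or lower in the 5 comparisons. In scaled TPM prohibitin stood at 62.5 on day 15 and 81.8 on day 20. The TIM44 match, which tethers the import motor to the inner membrane, had 216, 0, 0, 97 and 0 tags. It was at least 89.1-fold lower on day 15 than on day 10, against a floor of 3 tags in the library without it. It was unlisted on days 20 and 60 as well, so its absence was not particular to the day when HSP60 was highest. A further TIM44 match (Unigene91869) had 2 tags on day 30 and none on other days.

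The 2 most abundant matches to HSP70, the chaperone that binds clients before HSP90, had nearly all their tags on day 20, with 0, 3, 109, 0 and 3 for Unigene65737 and 0, 0, 86, 0 and 0 for Unigene11712. Day 20 was also the highest day of alpha-crystallin B, but on day 60, its other high day, these had 3 and 0 tags. Of the 11 DnaJ unigenes, proteins that stimulate HSP70, 8 had their highest count on day 15 and 3 on day 60, and together they summed to 0, 126, 20, 8 and 40 tags. HSP40A (Unigene91998) had 0, 26, 2, 0 and 5 tags, DnaJ C9 (Unigene80643) 0, 31, 0, 0 and 5, and a DnaJ domain protein (Unigene90254) 0, 40, 6, 0 and 0. The 3 highest on day 60 (Unigene20019, Unigene46950 and Unigene92394) had 7, 8 and 7 tags on that day and none on day 15.

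Calreticulin (Unigene90482), a chaperone of the endoplasmic reticulum, had 12, 100, 7, 4 and 23 tags, and was 6.73-fold higher on day 15 than on day 10 (3.69 to 13.5) and 11.0-fold lower on day 20 than on day 15 (5.17 to 28.2). The other members of its list, 4 protein disulfide isomerases, summed to 17, 5, 19, 14 and 18 tags, with their fewest on day 15, among them Unigene82988 with 15, 3, 15, 10 and 10 and Unigene82601 with 0, 0, 0, 4 and 8. The cytosolic chaperonin CCT, which folds actin and tubulin, and its partner prefoldin gave low counts, with 20, 41, 15, 8 and 27 tags over 11 unigenes, none of which reached the minimum. Prefoldin subunit 3 (Unigene85862) had 8, 15, 4, 4 and 6 tags, CCT subunit gamma (Unigene92287) 2, 3, 0, 2 and 8, and a further prefoldin match (Unigene31349) 3, 2, 0, 2 and 4. Of the small heat shock protein list, a lambda-crystallin match (Unigene57263) had 21, 30, 13, 22 and 62 tags. It was caught by the word crystallin, since lambda-crystallin is a dehydrogenase relative and no small heat shock protein. Heat shock factor binding protein 1 (Unigene87448), a negative regulator of heat shock factor in mammals, had 0, 16, 4, 0 and 7 tags, and a heat shock factor 2 binding protein match (Unigene86418) had 37, 361, 6, 15 and 13.

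Markers of motile cilia moved with the day 15 values of HSP90, HSP60, the DnaJ proteins and calreticulin. The 29 unigenes of the sperm and motile cilia list summed to 28, 806, 28, 27 and 71 tags in order of day, and to 12, 368, 10, 17 and 41 without axonemal dynein heavy chain 5 (Unigene82585). On day 15, 24 of the 29 were listed, against 5 to 7 on the other days, and 16 were listed on day 15 only. Of all 19415 unigenes, 11675 were listed on day 15 and 8824 to 10456 on the other days. The part of these cells, or of this library, in the chaperone values was not tested. The hemocyte list moved otherwise, with 713, 148, 152, 711 and 843 tags, nearly all from allograft inflammatory factor 1 (Unigene89534). The nervous list had 16, 5, 51, 11 and 62 tags, with its highest sums on days 60 and 20, as alpha-crystallin B had, and of these 49 on day 20 and 52 on day 60 were from 1 neuronal calcium sensor match (Unigene13560). The muscle list, with 8, 20, 32, 19 and 31 tags, was also highest on days 20 and 60, though its intervals on days 15, 20, 30 and 60 overlapped. The part of either list in the alpha-crystallin B values was not tested. No unigene matched the proteins of the mitochondrial genome or ribosomal RNA, so that list gave no check of RNA quality.

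**Figure D5:**
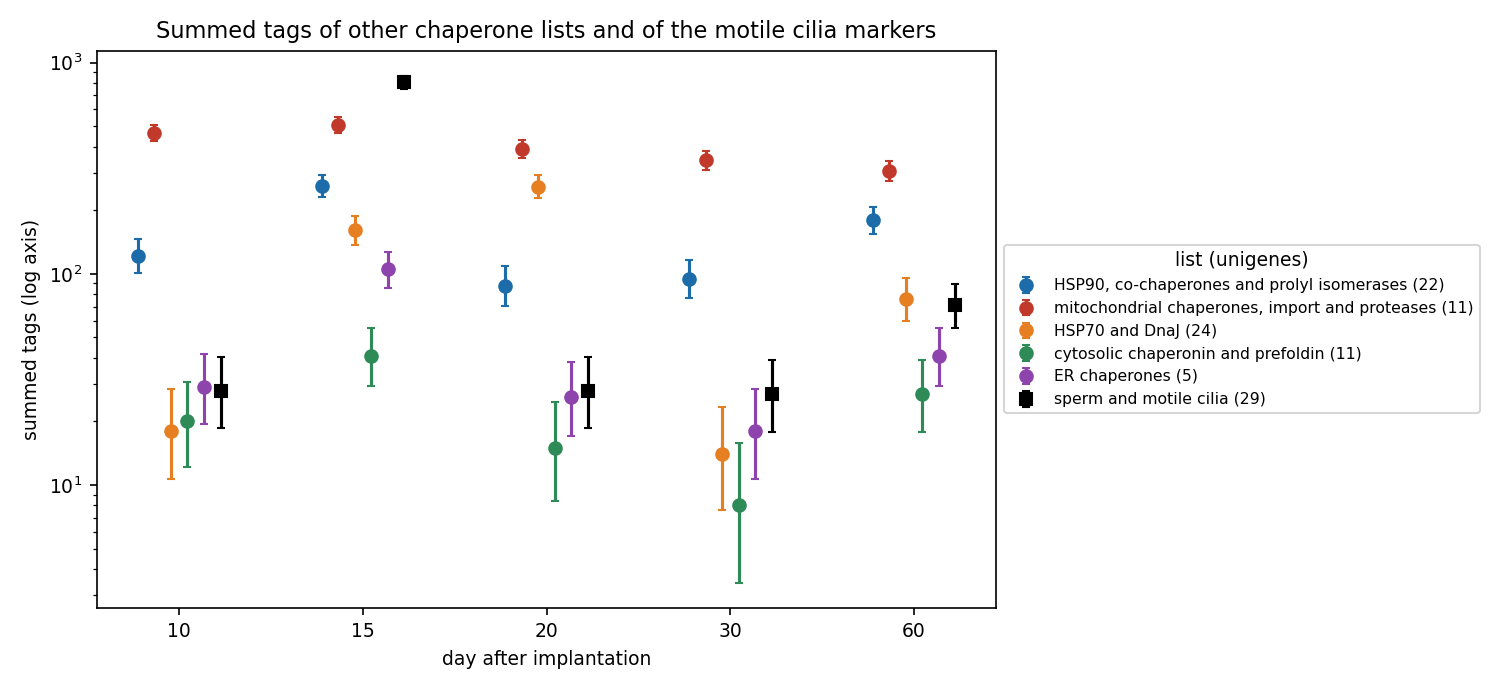
Summed tags, on a log axis, of 5 chaperone lists without HSP90, HSP60, HSP10 and alpha-crystallin B, and of the sperm and motile cilia markers, against day after implantation. Bars are exact Poisson 95% intervals, and the number of unigenes of a list stands in brackets. The cilia markers reach 806 tags on day 15, and the HSP70 and DnaJ list 259 on day 20.

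The genes most like each of the 4 were sought among 293 others with a named protein match and at least 10 scaled TPM in some library. Likeness was the root mean square difference, over the 5 libraries, of log2 (scaled TPM + 1) centred on the gene's own mean. For HSP90 the closest was HSP60, at 0.15, and only 1 of 2201 genes with or without a match lay closer. Both HSP90 and HSP60 passed the limit of 10 scaled TPM on day 15 only, so the search itself favoured their likeness, and nothing is concluded from this rank. The next for HSP90 were a match to GK13389 of Drosophila willistoni (Unigene88049), at 0.25, and proteasome subunit alpha type-5 (Unigene90760), at 0.27. For HSP60, after HSP90, they were cytoplasmic dynein light chain 2B (Unigene76352), at 0.23, and a match to a rat protein known by its cDNA number (Unigene91647), at 0.32.

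For HSP10 the closest were a hoi-polloi-like protein (Unigene72498), at 0.13, a DEAD box RNA helicase (Unigene92580), at 0.14, and ribosome biogenesis protein BMS1 (Unigene88796), at 0.17. HSP10 lay farther from HSP60 (0.53) and from HSP90 (0.39) than from these. Alpha-crystallin B had no close neighbour. Asparagine synthetase (Unigene1187) was nearest at 0.97, then an actin match (Unigene54854) at 0.98 and an RNase H family match (Unigene80996) at 1.00, and its difference from HSP90, HSP60 and HSP10 was 1.96, 1.96 and 1.99. The measure rests on 5 libraries, and at low counts it is shrunk by the pseudocount. With a pseudocount of 5, HSP10 kept all 3 neighbours, alpha-crystallin B kept 2, and HSP90 and HSP60 kept 1 each, which was the other of the pair.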

How the data were processed

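Per the file headers, the authors deposited for each library a whole-number tag count per unigene, with no normalization, and a TPM value, which by the values divides it by 1 total per library, without length correction. Each tag is listed with its copies and its CATG site. The sources used here do not give the aligner, assembly or mismatches, and no genome was used. The labels name a TruSeq RNA kit, although the tables hold CATG tags. The lowest listed copy number was 2, and a gene may be unlisted with 1 copy.

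Totals were recovered as count over TPM (median over genes of at least 5000 tags). TMM factors on these totals (0.947, 1.16, 0.897, 0.884 and 1.15 by day) came from edgeR 4.0.16 under R 4.3.3. The minimum of 10 scaled TPM equals 41.6 to 55.5 tags. Intervals of ratios were Clopper-Pearson intervals conditional on both counts, those of levels exact Poisson, those of shares Clopper-Pearson, and those of changes in a ratio conditional exact odds ratios (Python 3.11.15, scipy 1.17.1). An unlisted gene was set at a floor of 3 tags for a fold. The 4 genes, the lists and the rules were chosen with earlier results of these data known. Named genes were the 4, for each the 3 most alike, the 3 most abundant of each list, and further unigenes of the same families. Both STIP1 matches, HSP40A and other DnaJ unigenes beyond the 3 most abundant of their list, HSP90 match Unigene88650 and marker genes were named outside this rule, after their values were seen. So were the CDC37 match, the FK506-binding protein 4 matches and TIM44 match Unigene91869. The call procedure was tested on simulated Poisson counts, in which only genes of higher mean count than HSP90, HSP60 and alpha-crystallin B were changed. That test does not cover calls at the counts of those genes, nor variation between animals or libraries. Alternatives were DESeq2 1.42.0 size factors, total or listed tags, other minimum levels, a limit of 1.5-fold, the 3′-most site alone and, added after seeing the data, sums over unigenes of the same match, the mitochondrial list without TIM44, and factors without day 15.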

Additional observations from a re-analysis of the deposited data

How the results depend on the processing

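No called ratio of HSP90, HSP60, HSP10 or alpha-crystallin B changed sign under the alternatives run, and HSP10 was called higher on day 15 over day 10, making 3 genes, with DESeq2 size factors, total tags, listed tags or a limit of 1.5-fold. In the order of these settings, 390 of 1655, 468 of 1728, 430 of 1642 and 456 of 1669 genes in all were then higher. When only the 3′-most site was counted, of the 4 genes those called higher numbered 1 on day 15 over day 10 (HSP90), 0 on day 20 over day 15, 0 on day 60 over day 30 and 0 on day 60 over day 10, and 0 were lower on day 30 over day 20, since this leaves HSP60 and alpha-crystallin B under 10 scaled TPM. Over all genes, 288 of 1421, 357 of 1386, 214 of 1305 and 206 of 1380 were then higher in that order. On day 30 over day 20, 238 of 1304 were lower. At a minimum of 20 scaled TPM, 0 of the 4 were higher on day 15 over day 10, 0 on day 60 over day 30 and 0 on day 60 over day 10, and 1 was lower on day 20 over day 15. Over all genes, 229 of 1004, 123 of 852 and 125 of 907 were then higher in that order, and 295 of 997 lower. Scaling by listed tags gave log2 ratios of HSP10 of -2.74 on day 20 over day 15, 0.86 on day 30 over day 20 and 0.79 on day 60 over day 10, against -1.90, -0.25 and 0.14. That scaling moves all log2 ratios by 0.25, -0.84, 1.11, 0.13 and 0.65 in the order 15 over 10, 20 over 15, 30 over 20, 60 over 30 and 60 over 10, total tags by 0.29, -0.37, -0.02, 0.37 and 0.27, and DESeq2 size factors by 0.14, -0.07, 0.05, -0.07 and 0.05. The share of higher among called genes was 45.9%, 48.9%, 51.2%, 50.7% and 43.2% with TMM, 57.6%, 20.0%, 88.9%, 56.5% and 72.4% with listed tags and 59.5%, 34.8%, 47.7%, 69.6% and 56.0% with total tags. In that order, called genes numbered 339, 419, 304, 239 and 231 higher and 400, 438, 290, 232 and 304 lower with TMM. They numbered 798, 945, 791, 511 and 542 higher and 1028, 1016, 607, 639 and 836 lower without a minimum level, and 229, 257, 165, 123 and 125 higher and 237, 295, 182, 125 and 193 lower at 20 scaled TPM. Listed tags gave 720 higher and 90 lower on day 30 over day 20, 175 and 699 on day 20 over day 15, and 537 and 205 on day 60 over day 10. Total tags gave 373 higher and 163 lower on day 60 over day 30. Other unigenes of the chaperone lists called lower on day 20 over day 15 numbered 2 with TMM, 4 with DESeq2 size factors or total tags and 5 with listed tags. Over all genes, 438 (TMM), 473 (DESeq2 size factors), 588 (total tags) and 699 (listed tags) were lower. Below about 10 tags, which covers HSP90 and HSP60 on days 10 and 30, depth allows no ratio to be told from 1 unless it is large. No paired analysis was possible because there was 1 library per day.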
